A study of Mus musculus with 5 samples.

Results

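H3K9ac peaks of mouse striatal progenitor cells with mutant huntingtin were compared between cells given 4-deoxypyridoxine (DOP) and untreated cells, at a middle distance from genes. Of 67641 deposited peaks, 2702 were in one of the 2 lists only and had their centre more than 1 kb and at most 10 kb from the nearest transcript start of a protein-coding gene. These one-list peaks fell into a DOP-only set of 1498 and an untreated-only set of 1204. They were chosen by their positions in the 2 lists, since a DOP-only peak overlapped no untreated peak and an untreated-only peak overlapped no DOP-treated peak by as much as 1 bp. Being in one list is therefore the criterion of choice and not a result, and all 2702 peaks enter the counts below.

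The cells were of the STHdh Q111 line, conditionally immortalized striatal progenitors of genotype STHdhQ111/Q111 on the C57BL/6 strain, in which both copies of huntingtin carry an expanded CAG repeat. Both groups were kept in serum-free medium for 24 h, the DOP group with 4 mM 4-deoxypyridoxine hydrochloride and the untreated group with the vehicle DPBS, so that serum starvation and the mutant genotype are common to both. The labels name 2 H3K9ac samples per group, but each group has 1 peak list, and therefore no spread between samples can be given and no test between the conditions was made. The IgG sample and the wild-type Q7 cells were not analysed here, and a single immortalized line stands for the genotype. Peaks were 200 bp intervals around a called position (1 untreated peak is shorter), each with a score that the deposited lists do not define, so the score serves to rank a peak within its own list, and one alternative that cuts both lists at the same score rests on an untested likeness of the lists' scales. The read depth behind a peak is unknown. Intervals given beside shares and ratios are 95% intervals that cover the counting of peaks only.

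Acetylation of histone H3 at lysine 9 marks active promoters and, at lower density, active enhancers, the distal elements through which transcription factors act on a gene. The mark is placed by acetyltransferases and removed by histone deacetylases. DOP inhibits sphingosine-1-phosphate lyase (SPL), the enzyme that degrades sphingosine-1-phosphate, a lipid that inhibits deacetylases HDAC1 and HDAC2. Peaks between 1 and 10 kb from a start can lie at the edge of a promoter's acetylated domain or at separate elements in the first intron or upstream of the gene.

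The cells' promoter marks were first set against fixed marker lists. A promoter peak, with its centre within 1 kb of a start, was present in both lists for the neural progenitor genes Vim, Sox9, Hes1, Msi1, Cdh2 and Notch1, 6 of the 10 on that list, and absent from both for Nes, Sox2, Pax6 and Fabp7. Of 10 striatal progenitor genes, 5 had a promoter peak in the DOP-treated list (Dlx1, Foxp1, Foxp2, Meis2 and Ebf1) and 4 in the untreated list, whereas Gsx2, Dlx2, Dlx5 and Bcl11b were among those with none. Mature neuron genes had 1 and 0 of 10, oligodendrocyte and endothelial genes 1 and 0 of 5 each, and microglial genes 0 of 5 in each list. Mesenchymal genes had 5 of 6 in each list, with Thy1 in neither. Promoter marks of several defining neural genes were thus absent while those of most mesenchymal genes were present, and the cells are called here by the name on the labels.

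The sequences of 8 peaks on which the results turn are printed first, from the mm9 assembly, 5′ to 3′. Capitals mark matches, on either strand, to any of 8 short words that known factors bind: AP-1 (TGANTCA), TEAD (GGAATG), an E-box (CAGCTG), ETS (CCGGAA), SP (GGGCGG), CRE (TGACGTCA), NFI (TTGGCA) and RUNX (TGTGGT). A match describes the letters and not a bound site. The peak with the highest score of each set and the high-scoring peak farthest from any peak of the other list were taken by a fixed rule, while the pair at Bcar1 and the peaks at Emilin1 and Junb were picked after their values were seen.
Mecom, DOP-only, chr3:30406759-30406958, plus strand: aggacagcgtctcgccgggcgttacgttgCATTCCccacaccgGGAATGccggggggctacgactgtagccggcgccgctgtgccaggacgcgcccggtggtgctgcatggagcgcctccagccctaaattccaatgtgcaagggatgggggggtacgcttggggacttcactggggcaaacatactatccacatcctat
Cyp1b1, DOP-only, chr17:80113229-80113428, plus strand: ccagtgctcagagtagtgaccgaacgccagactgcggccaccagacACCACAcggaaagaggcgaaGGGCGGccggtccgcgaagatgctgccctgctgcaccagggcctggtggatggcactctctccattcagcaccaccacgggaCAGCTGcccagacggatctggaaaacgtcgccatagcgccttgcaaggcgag
Emilin1, DOP-only, chr5:31217871-31218070, plus strand: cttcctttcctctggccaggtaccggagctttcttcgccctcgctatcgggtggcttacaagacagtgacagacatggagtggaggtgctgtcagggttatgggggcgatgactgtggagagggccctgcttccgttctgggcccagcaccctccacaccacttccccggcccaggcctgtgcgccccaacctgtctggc
Junb, DOP-only, chr8:87504682-87504881, plus strand: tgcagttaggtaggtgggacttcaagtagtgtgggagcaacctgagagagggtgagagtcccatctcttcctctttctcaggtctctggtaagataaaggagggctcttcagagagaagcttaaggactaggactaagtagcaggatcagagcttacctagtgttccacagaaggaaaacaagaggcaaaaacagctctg
Bcar1, DOP-only, chr8:114269536-114269735, plus strand: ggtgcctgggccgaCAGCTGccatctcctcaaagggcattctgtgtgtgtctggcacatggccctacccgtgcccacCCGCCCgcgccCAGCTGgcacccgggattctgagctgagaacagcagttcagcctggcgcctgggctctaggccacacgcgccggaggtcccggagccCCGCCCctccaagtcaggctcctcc
Bcar1, untreated-only, chr8:114269330-114269529, plus strand: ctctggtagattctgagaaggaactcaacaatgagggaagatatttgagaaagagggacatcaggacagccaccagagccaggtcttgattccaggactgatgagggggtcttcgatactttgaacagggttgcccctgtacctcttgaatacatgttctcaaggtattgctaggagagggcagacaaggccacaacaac
Zbtb10, untreated-only, chr3:9251852-9252051, plus strand: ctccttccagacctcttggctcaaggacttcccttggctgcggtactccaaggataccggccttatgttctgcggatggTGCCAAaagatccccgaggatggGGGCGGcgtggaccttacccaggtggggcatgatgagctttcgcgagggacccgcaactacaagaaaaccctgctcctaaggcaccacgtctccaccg
Gm10716, untreated-only, chr9:3028924-3029123, plus strand: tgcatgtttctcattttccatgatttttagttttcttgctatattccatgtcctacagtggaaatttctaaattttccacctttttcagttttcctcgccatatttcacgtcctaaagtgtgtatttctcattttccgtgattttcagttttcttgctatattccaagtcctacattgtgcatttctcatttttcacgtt

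The 2 Bcar1 intervals lie side by side without overlap, with centres 206 bp apart, so that each counts as a one-list peak. Whether they are one event or separate events was not tested. The Mecom interval holds 2 TEAD words, and the Cyp1b1 interval holds an E-box, an SP and a RUNX word. The Gm10716 interval holds none of the 8 words, and neither do the intervals at Emilin1 and Junb or the untreated-only interval at Bcar1. The 32-base words of the Gm10716 interval are also found elsewhere in the assembly, 0% of them being unique, so reads cannot be placed there with certainty.

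One-list peaks made up a larger share of the peaks at this distance than of the lists as a whole. Over all distances, 20.0% of the DOP-treated peaks and 16.7% of the untreated peaks were in that list only. At 1 to 10 kb from a start the share was 38.8% in the DOP-treated list (1498 of 3861 peaks, 95% Wilson interval 37.3% to 40.3%) and 33.8% in the untreated list (1204 of 3566, 32.2% to 35.3%). Within 1 kb of a start the shares were 12.8% and 10.4%. Between 10 and 100 kb they were 43.3% and 38.5%, and beyond 100 kb 46.4% and 42.9%. The largest step therefore lay at the promoter's edge, and farther out the shares rose by less. The limits cut through close neighbours. The DOP-only member nearest to the inner limit lay 1003 bp from the start of Mdh1 and the nearest DOP-only peak outside it 999 bp from that of Kdm3b, while at the outer limit the distances were 9990 bp (Copz2) and 10025 bp (Rab11fip4). For untreated-only peaks they were 1001 bp (Rnps1) and 1000 bp (Csrp2bp), and 9950 bp (Syne2) and 10036 bp (Epb4.1l4b). The overlap rule is as sharp, since the DOP-only peak at Rnf213 lay 200 bp from the nearest untreated centre and a peak counted in both lists at Nmd3 lay 199 bp from it.

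The DOP-only peaks outnumbered the untreated-only peaks most clearly upstream of starts. Over all members the ratio of DOP-only to untreated-only peaks was 1.24 (exact interval 1.15 to 1.34). With the DOP-treated list shortened to the length of the untreated list it was 1.08, with an interval that includes 1 (0.998 to 1.17). In the lists at full length the ratio was about as high over all distances (1.23, 1.19 to 1.28) and within 1 kb of a start (1.24, 1.18 to 1.31). Between 10 and 100 kb it was 1.22 (1.14 to 1.31), and beyond 100 kb 1.15 (0.974 to 1.37). The excess over all members was thus not particular to this distance. Upstream the sets numbered 637 and 425, a ratio of 1.5 (1.32 to 1.7). Downstream, in the direction of transcription, they numbered 861 and 779, a ratio of 1.11 (1 to 1.22). Counted as shares, 57.5% of the DOP-only peaks (55% to 60%) and 64.7% of the untreated-only peaks (62% to 67.3%) were downstream, and peaks in both lists gave 57.3% and 57.5%. The DOP-only share combined unlike parts. Among members more than 1 kb from any centre of the other list, 50.8% of the DOP-only (47.6% to 54%) and 54.8% of the untreated-only peaks (51% to 58.5%) were downstream, and among the remaining members 69.1% (65.1% to 72.8%) and 77.3% (73.6% to 80.7%).

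The balance between the sets was different at the promoter's downstream edge. Between 1 and 1.5 kb downstream, 300 peaks were DOP-only and 333 untreated-only, a ratio of 0.901 (0.768 to 1.06), and over the same distance upstream 97 and 57, a ratio of 1.7 (1.21 to 2.4). Between 3 and 5 kb the ratio was 1.49 upstream (1.12 to 1.99) and 1.51 downstream (1.14 to 2.01), and between 5 and 7.5 kb it was 1.61 and 1.4. Between 7.5 and 10 kb it was 1.33 upstream and 1.06 downstream, with intervals that reach 1 on both sides. The median distance to the start was accordingly longer for DOP-only peaks, at 3300 bp against 2682 bp.

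**Figure D1:**
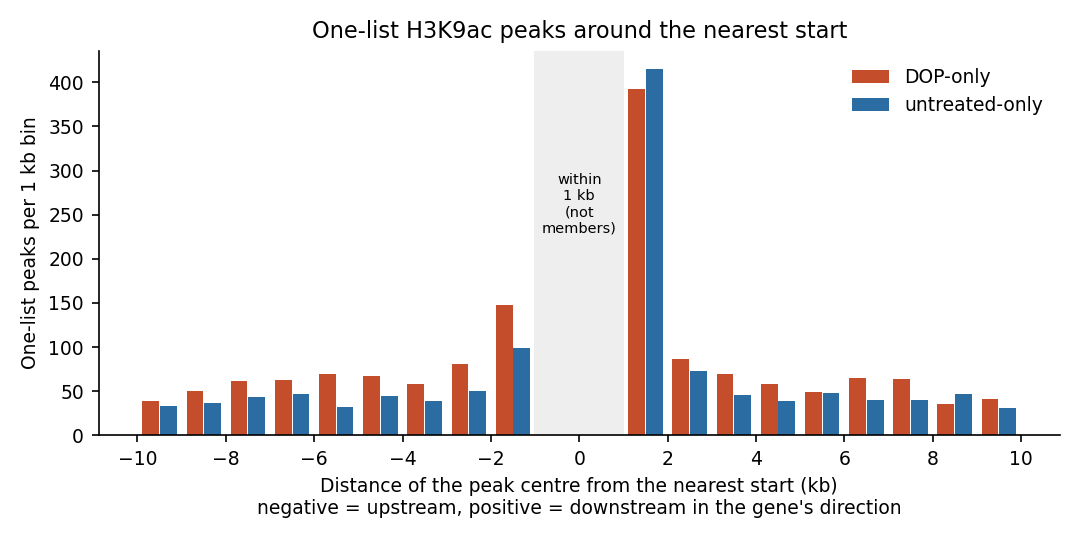
Number of DOP-only and untreated-only peaks (bars, vertical axis) in 1 kb bins of the distance from the peak centre to the nearest start (horizontal axis, kb, upstream negative). Both sets peak between 1 and 2 kb downstream, where untreated-only peaks are the more numerous (415 against 392), and DOP-only peaks are the more numerous in all 9 upstream bins, for example by 69 against 32 between 5 and 6 kb.

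**Figure D2:**
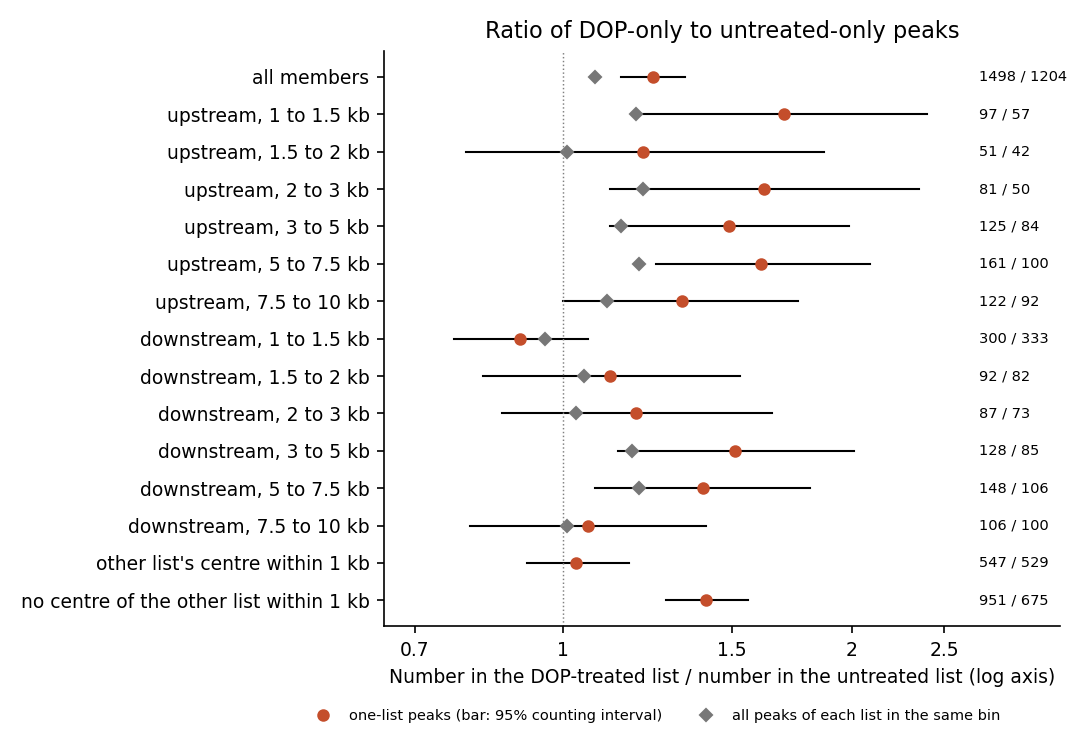
Ratio of the number of DOP-only to untreated-only peaks (circles, log axis) with its 95% counting interval (bars), by side and distance from the start and by whether a centre of the other list lay within 1 kb, with the same ratio for all peaks of the lists, members included (diamonds), where it applies and the 2 counts at the right. The ratio is 1.24 over all members and 1.41 for isolated peaks. The one circle below 1 is that between 1 and 1.5 kb downstream (0.901), where the diamond is also below 1 (0.956).

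The one-list peaks fell into a group next to peaks of the other list and a group standing alone, with a larger ratio of DOP-only to untreated-only peaks in the second. Adjacent members, with a centre of the other list between 200 bp and 1 kb away, numbered 547 DOP-only and 529 untreated-only, a ratio of 1.03 (0.916 to 1.17). Isolated members, more than 1 kb from any centre of the other list, numbered 951 and 675, a ratio of 1.41 (1.28 to 1.56). Isolated members were 63.5% of the DOP-only peaks (61% to 65.9%) and 56.1% of the untreated-only peaks (53.2% to 58.8%). The ratio was 1.3 where the nearest centre lay 1 to 2 kb away, 1.39 from 2 to 5 kb, 1.4 from 5 to 10 kb and 1.5 from 10 to 100 kb. Beyond 100 kb the sets had 41 and 34 peaks.

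Side and neighbourhood were then combined. Among isolated members the ratio was 1.53 upstream (468 against 305, 1.33 to 1.78) and 1.31 downstream (483 against 370, 1.14 to 1.5). Among adjacent members it was 1.41 upstream (169 against 120, 1.11 to 1.79) but 0.924 downstream (378 against 409, 0.801 to 1.07). Adjacent downstream peaks were thus the one class of these 4 in which untreated-only peaks were the more numerous, by less than the counting interval. Adjacent members mostly had close neighbours in their own list too, as 94.7% of the DOP-only and 93.8% of the untreated-only ones had another peak of their own list within 1 kb, against 32.4% and 27.4% of isolated members.

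**Figure D3:**
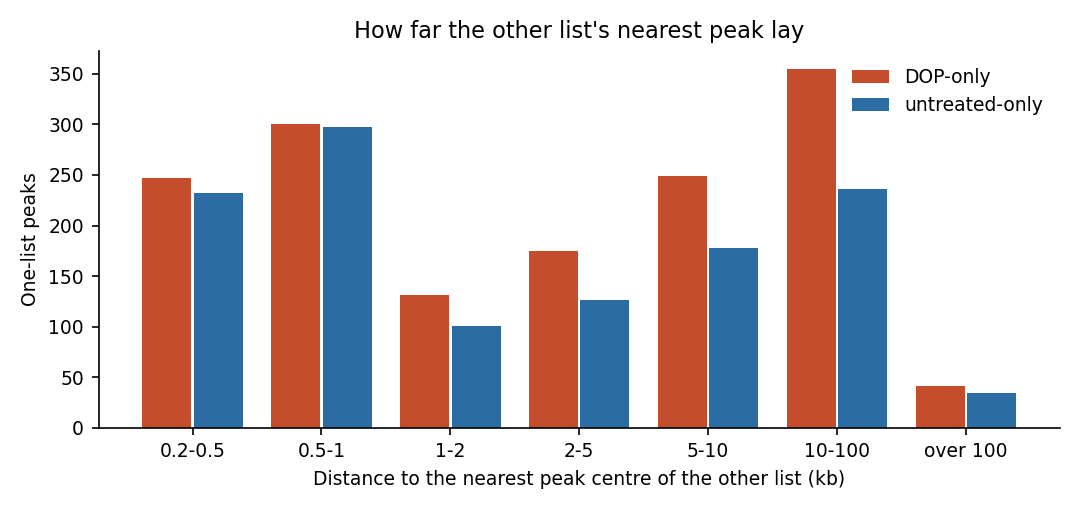
Number of one-list peaks (bars) by the distance from their centre to the nearest peak centre of the other list (horizontal axis, kb, in unequal bins). The sets have nearly equal numbers below 1 kb (247 against 232, then 300 against 297) and DOP-only peaks are the more numerous in every bin beyond it, as with 355 against 236 between 10 and 100 kb.

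Both sets had low scores for their list. In DOP-only peaks the median score percentile was 14, with quartiles of 5.91 and 27.1, and in untreated-only peaks 14.2, with quartiles of 5.84 and 29.1. Peaks at the same distance that were in both lists had medians of 37.9 and 35.5. The lowest 10% of a list held 39.5% of the DOP-only and 39.3% of the untreated-only members, so the sets did not differ in that respect beyond counting error. The top 50% of the lists held 235 members, of which 124 were untreated-only, so that the ratio was 0.895 (0.687 to 1.17), and the top 10% held 4 DOP-only and 11 untreated-only members. The excess of DOP-only peaks thus did not extend to high scores.

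Among isolated members the ratio was not highest at the lowest scores. It was 1.26 in the lowest 10% of the lists (510 against 406, 1.1 to 1.43), 1.54 in the next 10% (220 against 143, 1.24 to 1.91) and 2.07 between percentiles 20 and 30 (114 against 55, 1.49 to 2.91). Between percentiles 30 and 40 the ratio was 1.55 (51 against 33), with an interval that includes 1 (0.978 to 2.47). Between percentiles 40 and 50 the sets had 29 and 9 peaks, and above percentile 50 they had 27 and 29. These numbers changed with how far down in score the lists were taken. With the DOP-treated list shortened to the 33355 highest-scoring peaks, the length of the untreated list, the sets had 1317 and 1220 peaks, a ratio of 1.08 (0.998 to 1.17). The upstream ratio was then 1.25 (1.1 to 1.42), the downstream ratio 0.985 (0.89 to 1.09) and the isolated ratio 1.13 (1.02 to 1.26). With both lists reduced to scores of at least 100, the upstream ratio was 2.07 (1.73 to 2.49), the downstream ratio 1.2 (1.07 to 1.36) and the isolated ratio 2.08 (1.78 to 2.42) instead. Whether a score of 100 means the same in both lists was not tested. The upstream and isolated ratios were above 1 under both cuts, the size of each followed the cut, and the downstream ratio lay on either side of 1.

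**Figure D4:**
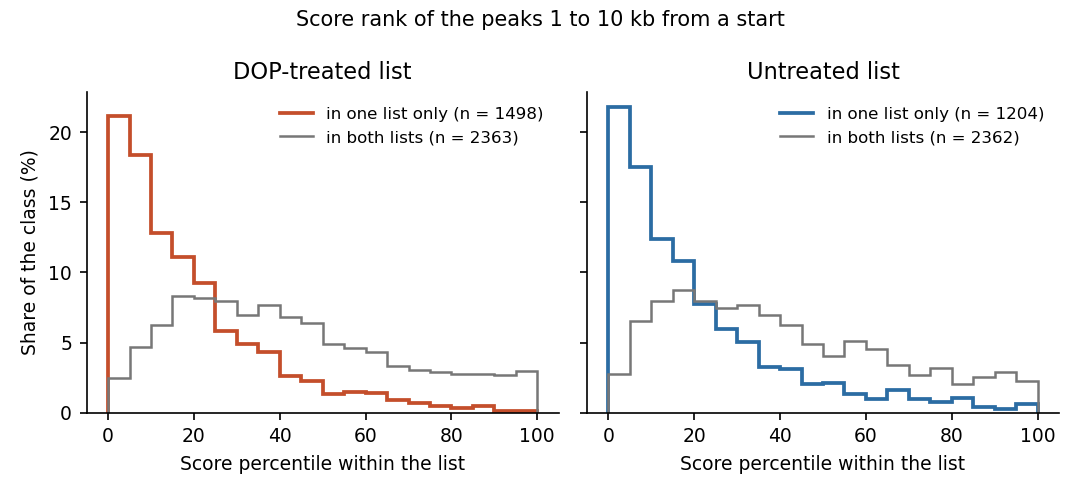
Share of each class of peaks 1 to 10 kb from a start (vertical axis, %) in bins of 5 score percentiles within the DOP-treated list (left) and the untreated list (right). One-list peaks (coloured lines) crowd into the lowest bins of their list with medians of 14 and 14.2, while peaks in both lists (grey lines) are spread over the range with medians of 37.9 and 35.5.

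The 8 highest-scoring DOP-only peaks all had an untreated centre within 1 kb, which for Smc4 was that of an untreated-only peak and for the other 7 that of a peak in both lists. The highest, at percentile 98.2, lay in an intron of Mecom, which encodes a zinc finger transcription factor, 1551 bp downstream of a start and 824 bp from an untreated centre. The next lay 1023 bp into Clcf1 (percentile 95.9), the gene of a neurotrophic cytokine, upstream of Setd1b (92.0), a histone H3 lysine 4 methyltransferase, and within Pim3 (91.8), a serine/threonine kinase. The remaining 4 of the 8 highest, at Smc4, Adcy6, Lgals1 and Bahcc1, ranked between percentiles 87.1 and 88.7 and lay 200 to 305 bp from an untreated centre.

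High-scoring DOP-only peaks far from any untreated peak were few, and the leading pair was at Cyp1b1. This gene, which encodes a cytochrome P450 that oxidizes steroids and aromatic hydrocarbons, lies at chr17:80106234-80114401 on the minus strand. Its DOP-only peaks lay in a coding exon 1053 and 1456 bp downstream of the start, at percentiles 86.7 and 82.7, and the nearest untreated centres were 98618 and 98215 bp away. The first is printed above. At the Cyp1b1 promoter itself the DOP-treated list had 2 peaks, the higher at percentile 58.7, and the untreated list had 0. The acetylated stretch over the start and the first coding part of Cyp1b1 was thus listed after DOP alone.

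The same rule named Prkd2 and Ahnak2. The DOP-only peak in an intron of Prkd2, a protein kinase D gene, was at percentile 55.1, 2045 bp downstream of the start and 27439 bp from the nearest untreated centre, and the promoter had 1 peak in the DOP-treated list (percentile 88.3) and 0 in the untreated list. The peak in an intron of Ahnak2, a large scaffold protein gene, was at percentile 57 and 13612 bp from an untreated centre, at a gene with no promoter peak in either list.

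Among the highest-scoring untreated-only peaks, 4 of 8 were in sequence that is not fully unique. They were 3 peaks at the predicted gene Gm10716, at percentiles 99.6, 97.9 and 96.6 with 0% of their 32-base words unique, and 1 at the predicted gene Gm10801, at percentile 98.5 with 64.5% unique. The other 4 had unique sequence throughout. They lay in coding exons of Cdk13 (98.8), a cyclin-dependent kinase, and Tsc22d2 (98), 258 and 220 bp from a DOP-treated centre, in an intron of Ptrf (96.3), a coat protein of caveolae, and 4666 bp downstream of the start of Foxc1 (98.3). The peak at Foxc1, a forkhead transcription factor of mesenchymal and neural crest development, was 2701 bp from the nearest DOP-treated centre and the only one of these 4 that was isolated.

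Zbtb10 showed the reverse of Cyp1b1. Its untreated-only peak, at percentile 68, lay in a coding exon 1349 bp downstream of the start of this zinc finger repressor gene (chr3:9250602-9285333, plus strand), and the nearest DOP-treated centre was 105804 bp away. The Zbtb10 promoter had 2 untreated peaks, the higher at percentile 93.5, and 0 DOP-treated peaks. Hoxb13, Vgll4 and Sim2 followed. The peak 9383 bp from the start of the homeobox gene Hoxb13 was at percentile 67.6 and 36564 bp from a DOP-treated centre, with no promoter peak in either list. That in an intron of Vgll4, a cofactor that competes for TEAD factors, was at percentile 78.9 and 27370 bp away, although the promoters of Vgll4 had peaks in both lists. That in an intron of Sim2, a basic helix-loop-helix factor gene, was at percentile 56.1 and 7184 bp away.

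Whole groups of one-list peaks lay at some genes. The members were nearest to 2079 genes, of which 1053 had DOP-only members without an untreated-only one, 845 the reverse, and 181 had both. A single member was the rule, at 1606 genes. At least 3 members of one set and none of the other were found at 35 genes with DOP-only and 17 with untreated-only peaks.

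The DOP-only groups included an isolated histone locus and an extracellular matrix gene. Hist1h4d had 5 DOP-only members 3484 to 5296 bp downstream of its start, at percentiles 21.8 to 60.4, with the nearest untreated centre at least 2736 bp away. Their centres lie within the neighbouring histone gene Hist1h2be, and the highest of them has only 9.47% unique words, as histone genes have near-identical copies. Emilin1, which encodes an elastin-associated glycoprotein, had 3 DOP-only members in a row at 1107, 1450 and 1832 bp downstream of its start, at percentiles 62.4, 57.7 and 67.5, while the nearest untreated centre, a peak in both lists, lay 449 bp from the first and 1174 bp from the last. All 3 thus lay on the gene side of the nearest untreated centre, and the outermost of them is printed above.

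Of the other DOP-only groups, Pim3 had 4 members from 1175 to 5884 bp downstream, with percentiles of 91.8, 36.7, 35.7 and 26.1. Bach2, a leucine zipper repressor gene, had 4, of which 3 lay together in an intron, 2845 to 3557 bp downstream of a start, at percentiles 16.1 to 47.4 and at least 10561 bp from the nearest untreated centre. Bcl3, a regulator of NF-κB, had 4 upstream of its starts at percentiles 10.4 to 20.9. Traf3, an adaptor of cytokine receptor signalling, had 5 weak ones at percentiles 3.21 to 8.54, of which 3 lie within the overlapping predicted gene 4930595D18Rik and not within Traf3.

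The untreated-only groups were led by Irf2bp2 and Phf20 with 5 members each. Irf2bp2, a corepressor gene, had 5 untreated-only members, of which 4 lay in its coding exon or 3′ UTR at 1688 to 4434 bp downstream, at percentiles 29.4 to 55.8, and at least 1035 bp from the nearest DOP-treated centre. Zfp36l2, which encodes an mRNA-destabilizing protein, had 4 members at 1005 to 3801 bp downstream with percentiles of 68.4, 75, 61 and 31.2. At both genes the called events of untreated cells reached the 3′ part of the gene. The members at Phf20, a reader of methylated lysines, were at percentiles 8.01 to 33.2, and Atoh8, Fam110b and Hhat had 4 each, of which none was above percentile 18.2. Those at Fam110b were at least 42758 bp from any DOP-treated centre.

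Some genes had members of both sets. Predicted genes left out, 6 genes had at least 2 members of each set. At Myo1g, an unconventional myosin gene, a DOP-only peak at percentile 63.9 and an untreated-only peak at percentile 55.7 lay 205 bp apart, and 66.3% of the words of the first were unique. At Fyn, a Src-family kinase gene, 3 DOP-only and 2 untreated-only peaks lay at least 18627 bp from the nearest centre of the other list, with percentiles of at most 8.01. Over all members, 51 pairs of a DOP-only and an untreated-only peak were each other's nearest, and 34 of these pairs lay within 1 kb, with a median distance of 262 bp.

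The immediate-early genes were set out as a list of 22, comprising the Fos and Jun families of AP-1, the Egr factors and other genes that growth factors and serum induce within minutes. This list and those below were chosen with earlier results of these data known. Their shares are therefore descriptions and no independent evidence of an excess. DOP-only peaks lay at 9 of the 22 and untreated-only peaks at 3, where 5.51% and 4.58% of all 22380 protein-coding genes, and 8.37% and 7.34% of those with a promoter peak in both lists, had such a peak. The 9 genes were Fos, Fosb, Fosl1, Fosl2, Junb, Egr1, Egr3, Ier2 and Cyr61. Of their 11 DOP-only peaks, 9 lay upstream of the start, all outside protein-coding genes and 1282 to 2819 bp away, whereas of all DOP-only members 637 of 1498 were upstream. The upstream side was not particular to the DOP-only peaks of this list. Of its 4 untreated-only peaks, 3 were upstream and outside protein-coding genes, whereas of all untreated-only members 425 of 1204 were upstream.

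The AP-1 genes themselves made up most of this list's members. Fos had 2 DOP-only peaks 1282 and 1650 bp upstream at percentiles 12.7 and 13.4, and Fosl1 had 2 at 2373 and 2819 bp upstream at percentiles 14.1 and 18.6. These 4 were isolated, with untreated centres 1152 to 3244 bp away, whereas the DOP-only peak 2164 bp upstream of Junb (percentile 56.2) had an untreated centre 347 bp away. Fosb had a DOP-only peak 2046 bp downstream (percentile 22.5) and 4 promoter peaks in the DOP-treated list, all DOP-only and none above percentile 31.6, while the untreated list had 0 there. The promoters of Fos, Fosl1, Fosl2 and Junb had peaks in both lists.

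The other immediate-early genes showed the same side. Egr1, a zinc finger factor, had a DOP-only peak 1700 bp upstream (percentile 38.5, 1940 bp from an untreated centre), and Egr3 had one 1801 bp upstream (percentile 32, 326 bp). Ier2 had one 1861 bp upstream (percentile 41.4, 265 bp), and Cyr61, a secreted matricellular protein, one 1501 bp upstream (percentile 65.9, 1033 bp). Untreated-only peaks lay at Fosl2 (1016 bp upstream and 2083 bp downstream, percentiles 81.5 and 71.7), at Myc (1079 bp upstream, percentile 30.9) and at Ier3 (7593 bp upstream, percentile 9.91). Of these 4, none was isolated, and of the 11 DOP-only peaks 6 were. When centres within 500 bp counted as shared, 5 of the 22 genes had a DOP-only and 2 an untreated-only peak. Serum starvation was common to both groups, and transcript levels were not analysed here.

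The list of growth factor and MAP kinase pathway genes had untreated-only peaks at 6 of 29 (20.7%) and DOP-only peaks at 2 (6.9%). Of genes with a promoter peak in both lists, 7.34% had untreated-only and 8.37% DOP-only peaks, so the DOP-only count was near that share. Of these 6, Dusp1 and Dusp6 encode phosphatases that inactivate MAP kinases and Spry2 an inhibitor of receptor tyrosine kinase signalling, and Egfr, Pdgfrb and Pdgfb encode receptors and a ligand. Dusp1 had untreated-only peaks 3869 bp downstream and 6029 bp upstream (percentiles 36.8 and 7.47). Dusp6 had one in a coding exon 1423 bp downstream (percentile 27.5), and its promoter had 4 untreated peaks, 3 of them untreated-only, against 1 DOP-treated peak. Spry2 had one 1915 bp upstream (percentile 34). With centres within 500 bp counted as shared, the numbers of genes were 6 (untreated-only) and 1 (DOP-only). The DOP-only peaks were at Spred2 (3832 bp upstream, percentile 35.2) and Mapk3 (4332 bp upstream, percentile 9.56).

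Interferon and stress genes had untreated-only peaks at 5 of 26 (19.2%) and DOP-only peaks at 2 (7.69%). The DOP-only share was near the 8.37% of genes with a promoter peak in both lists, where the untreated-only share was 7.34%. Ifit2, an interferon-induced gene, had untreated-only peaks 1863 and 6190 bp downstream (percentiles 33.2 and 9.99), and its promoter had 2 peaks, at most at percentile 50.8, in the untreated list and 0 in the DOP-treated list. Atf4, the transcription factor of the integrated stress response, had untreated-only peaks in a coding exon 1173 and 1445 bp downstream (percentiles 82.3 and 35.7), 252 and 524 bp from DOP-treated centres. Irf2 had one 2031 bp downstream at percentile 53.6, and Irf1 and Nfkbia had one each upstream at percentiles 15.7 and 6.21. The DOP-only peaks were at Gadd45a and Gadd45b, growth arrest genes induced by DNA damage, at percentiles 48.9 and 23.5.

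Genes of histone acetylation and deacetylase complexes had DOP-only peaks at 4 of 28 (14.3%) and untreated-only peaks at 1 (3.57%). All genes had 5.51% and 4.58%, and those with a promoter peak in both lists 8.37% and 7.34%. The untreated-only share was thus near that of all genes. The corepressor scaffold gene Sin3a had DOP-only peaks 1270 bp downstream and 1165 bp upstream of starts, at percentiles 46.8 and 65, at least 1617 bp from an untreated centre. The deacetylase gene Hdac7 had 2 at percentiles 39.1 and 19.8, the demethylase gene Kdm1a 3 at percentiles 0.699 to 6.9, and the acetyltransferase gene Kat2b 1 at percentile 8.1. Untreated-only peaks were at the corepressor gene Rcor1, at percentiles 2.81 and 15.3. Hdac1 and Hdac2 had no member. Of the 33 sphingolipid genes, including Sgpl1 for SPL, none had a DOP-only member, and Sgms1 and Cerk had 1 untreated-only member each, at percentiles 10.1 and 3.15. Only 38.5% of the words of the Cerk peak were unique. The list's shares were 0% and 6.06%, beside 5.51% and 4.58% of all genes. Counts this small on 33 genes do not set the list apart from all genes.

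Cytoskeletal and adhesion genes had the largest number of members among these lists. Of 28 focal adhesion and actin genes, 11 (39.3%) had DOP-only and 8 (28.6%) untreated-only peaks. All genes had 5.51% and 4.58%, and those with a promoter peak in both lists 8.37% and 7.34%. Both kinds of peak were found at 3 of the 28. With centres within 500 bp counted as shared, 7 genes had DOP-only and 8 untreated-only peaks, so the order of the sets turned with that choice. Bcar1, which encodes the docking protein p130Cas, had the pair of peaks 206 bp apart that is printed above, at percentiles 72.6 (DOP-only) and 65.3 (untreated-only), and 3 further untreated-only peaks. DOP-only peaks were found at Actb (percentile 32.9), Vcl (24.9), Itga5 (20.1) and Tpm1 (9.42 and 31.7), and untreated-only peaks at Pxn (50.5 and 16.4), Flna (45) and Myh9 (20.9 and 34.4). Ahnak had a DOP-only peak 5401 bp upstream at percentile 43.6 and untreated-only peaks at percentiles 20.5 and 2.81, and Tns1 had a DOP-only peak 2402 bp downstream at percentile 3.71.

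TGF-β and BMP pathway genes had DOP-only peaks at 4 (15.4%) and untreated-only peaks at 6 (23.1%) of 26. Genes with a promoter peak in both lists had 8.37% and 7.34%. The type II receptor gene Tgfbr2 (percentile 73.2), Id3 (63.9) and the corepressor gene Ski (57.1 and 9.14) had DOP-only peaks, and Smad1 (59.5) and the ligand gene Tgfb2 (45.5) were among the genes with untreated-only peaks. Of 32 axon guidance genes, 4 (12.5%) had DOP-only and 6 (18.8%) untreated-only peaks beside the same shares, of which Efna5, an ephrin ligand gene without a promoter peak in either list, had one of each set 2886 bp apart at percentiles 70 and 59.2. With centres within 500 bp counted as shared, 1 TGF-β and BMP gene had DOP-only and 5 had untreated-only peaks, and the axon guidance counts were again 4 and 6.

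By annotation at the centre, one-list peaks were intronic more often than peaks in both lists. Introns held 58.1% of the DOP-only (55.6% to 60.6%) and 63% of the untreated-only peaks (60.3% to 65.7%), against 48% and 48.2% of peaks in both lists. Outside protein-coding genes lay 33.8% of the DOP-only peaks (31.5% to 36.3%) and 28.2% of the untreated-only peaks (25.8% to 30.8%), against 40.5% and 40.7%. The intervals of the sets overlap slightly for introns. Outside genes the sets differed from each other, as they did by side of the start. Among adjacent members the shares outside genes were 28.3% (24.7% to 32.3%) and 19.8% (16.7% to 23.5%). Among isolated members they were 37% (34% to 40.1%) and 34.8% (31.3% to 38.5%), with overlapping intervals. Among upstream peaks alone the shares outside genes were 63% and 62.8%. Coding exons held 4.54% and 4.82%.

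The nearest gene of a member usually had a promoter peak in both lists, where the peaks of the lists need not overlap. For 75.6% of the DOP-only peaks (73.3% to 77.7%) and 79.1% of the untreated-only peaks (76.7% to 81.3%) its promoter had a peak in both lists, and 76.9% and 76.8% of the peaks in both lists were at such genes. A promoter peak in neither list was found at the nearest gene of 21.4% and 17.9%. A promoter peak in the DOP-treated list alone, as at Cyp1b1, was found for 1.8% of the DOP-only and 1.25% of the untreated-only members, and in the untreated list alone, as at Zbtb10, for 1.2% and 1.83%. The intervals of these last shares overlap between the sets.

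In base composition the sets resembled each other more than peaks in both lists. GC content had a median of 52% in the DOP-only and 50.5% in the untreated-only set, against 55% in peaks of both lists. The ratio of observed to expected CpG had medians of 0.261 and 0.258, against 0.463 and 0.464. The SP word, part of many CpG-island promoters, was present in 9.61% of the DOP-only peaks (8.22% to 11.2%) and 8.97% of the untreated-only peaks (7.48% to 10.7%), against 18.6% and 19.3% of peaks in both lists and 28.5% and 29.3% of all peaks.

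Of the words of factors that act at distal elements, the NFI word was more frequent in both sets than in peaks of both lists beyond the counting intervals. The NFI word was found in 11.1% of DOP-only (9.65% to 12.8%) and 12% of untreated-only peaks (10.2% to 13.9%), against 7.53% and 7.79% of peaks in both lists and 6.99% and 7.01% of all peaks. The AP-1 word was found in 6.48% (5.34% to 7.84%) and 5.98% (4.78% to 7.46%), against 4.7% (3.92% to 5.63%) and 4.15% (3.42% to 5.03%) of peaks in both lists and 3.38% and 3.03% of all peaks. The RUNX word was found in 11.9% (10.4% to 13.7%) and 13.5% (11.7% to 15.6%), against 9.52% (8.4% to 10.8%) and 10.5% (9.33% to 11.8%). The TEAD word was found in 12.2% (10.7% to 14%) and 10.5% (8.86% to 12.3%), against 8.97% (7.89% to 10.2%) and 9.06% (7.97% to 10.3%). For AP-1 and RUNX in both sets, and for TEAD in untreated-only peaks, these intervals overlap those of peaks in both lists. The E-box was the commonest of the 8 words, in 14.9% and 13.9%, against 12.8% and 13.5% of peaks in both lists. The ETS word was in 4.21% of DOP-only peaks (3.3% to 5.34%), against 6.98% of peaks in both lists (6.02% to 8.08%). In untreated-only peaks it was in 4.82% (3.74% to 6.18%), against 6.73% (5.79% to 7.81%), with overlapping intervals. Between the sets the intervals overlapped for each of the 8 words, so no word set DOP-only apart from untreated-only peaks at this number of peaks.

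Among peaks with 45 to 55% GC, the SP and TEAD words differed less from peaks in both lists than over all GC contents, while the NFI word in DOP-only peaks was as many percentage points above them as before. The NFI word was in 12.4% of DOP-only and 12.2% of untreated-only peaks, against 8.77% and 9.35% of peaks in both lists. The band holds fewer peaks (772 DOP-only and 596 untreated-only, 901 and 920 in both lists), its intervals are wider, and those of the NFI word overlap those of peaks in both lists for DOP-only (10.3% to 15% against 7.09% to 10.8%) and for untreated-only peaks (9.86% to 15.1% against 7.63% to 11.4%). The RUNX word was in 13.7% and 16.4% of the sets, against 11.9% and 13.5%, and the ETS word in 3.5% and 5.7%, against 4.44% and 4.67%. The TEAD word was in 12.8% and 12.2%, against 11.8% and 11.5%, and the SP word in 5.83% and 4.87%, against 6.33% and 7.61%. The part of GC content in these differences was not tested. Isolated members had the AP-1 word in 7.99% of DOP-only (6.43% to 9.89%) and 7.26% of untreated-only peaks (5.53% to 9.47%), and adjacent members in 3.84% (2.52% to 5.8%) and 4.35% (2.91% to 6.44%). The AP-1 word was thus more frequent in isolated than in adjacent DOP-only members beyond the counting interval. The CRE word was in 4 DOP-only peaks and 1 untreated-only peak.

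**Figure D5:**
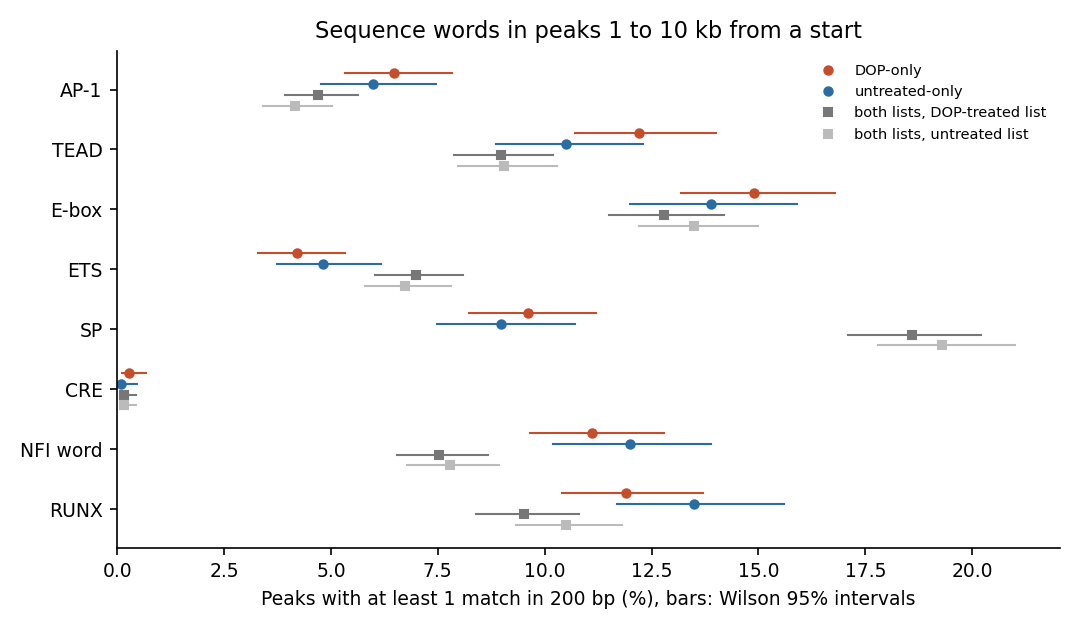
Share of peaks 1 to 10 kb from a start (horizontal axis, %) with at least 1 match to each of 8 words in 200 bp, for DOP-only and untreated-only peaks (circles) and for the peaks in both lists (squares), with 95% Wilson intervals. The intervals of the 2 one-list sets overlap for all 8 words, and for the SP word they lie far below the peaks in both lists (9.61% and 8.97% against 18.6% and 19.3%).

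Sequence that cannot be placed uniquely took a small and similar part of both sets. All 32-base words were unique in 87.4% of the DOP-only and 85.7% of the untreated-only peaks, and under 50% of them were unique in 69 and 60 peaks. Without those peaks there were 1429 DOP-only and 1144 untreated-only members, a ratio of 1.25 (1.15 to 1.35).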

How the data were processed

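H3K9ac ChIP-seq was analysed from 1 deposited peak list per condition, 34286 DOP-treated and 33355 untreated peaks on mm9. The score column of each list was made by the authors' peak caller (GPS, whose output format is that of GEM) and is deposited without a definition. It was used as a percentile within its own list, except in one alternative that cut both lists at a score of 100. The study's methods name Bowtie 2 as the aligner, while the submitters' processing notes name BWA 0.7.10. The deposited lists are longer than the lists that the study's text describes, and what was filtered between them is not given in the sources used here. Reduced to scores of at least 100, they held 30841 DOP-treated and 29628 untreated peaks, each slightly more than the study's text gives. The peak threshold, the use of the IgG sample and the pooling of the 2 samples per group are not given in the sources used here. Total reads per sample are likewise not given there.

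Distances were taken from the deposited peak centre to the nearest of 78261 transcript starts of 22380 protein-coding genes (GENCODE vM1, NCBIM37). Overlap meant at least 1 bp, and 1 peak was not 200 bp wide. Each peak went to the gene of its nearest start. The annotation was read at the centre, so it can belong to another gene. Sequence and the share of 32-base words that occur once were read from the NCBIM37 assembly. Shares have Wilson intervals at the 95% level and ratios exact conditional binomial intervals. No p-value was computed.

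The members and gene lists were chosen with earlier results of these data known. Named genes were the 8 highest-scoring members of each set, the genes with the most members of one set, genes with members of both, the high-scoring members farthest from the other list, the highest-scoring list genes, and the peaks nearest to each limit. Further list genes were named after their values were seen. Of the listed symbols, 4 were matched through older names. All 7 steps tested on planted peaks, starts and words returned every planted value. The analysis ran in Python 3.11.15, with pysam 0.24.0 for sequence, scipy 1.17.1 for intervals, pandas 2.3.3 on numpy 2.4.6 for tables and matplotlib 3.10.9 for plots. Overlap, score, window, start-site and word-uniqueness alternatives were run. Some items are not reported here.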

Additional observations from a re-analysis of the deposited data

How the results depend on the processing

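No paired analysis was possible because each condition has a single peak list, and no replicate could be left out for the same reason. Of 203 values under 14 other settings, 116 stayed within the limits set for them, and the DOP-only set was the larger in 12 of 13 alternatives of the counts. Centres within 1 kb counted as shared left 1626 members, 675 of them untreated-only, shares of 24.6% (DOP-only) and 18.9% (untreated-only) and a ratio of 1.41. The members left by that setting are the isolated members described above, so it is not a separate count. Within 500 bp the shares were 32.4% and 27.3%, the median percentiles 12.1 and 12.2 and the median CpG ratio of untreated-only peaks 0.24, and DOP-only against untreated-only peaks were left at 7 against 8 focal adhesion and actin, 5 against 2 immediate-early, 1 against 5 TGF-β and BMP and 1 against 6 growth factor and MAP kinase genes. A reciprocal overlap of at least 50% gave shares of 47.8% and 43.5%.

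With both lists reduced to scores of at least 100, 1704 members remained, 702 of them untreated-only, with shares of 32.3% and 25.1%, a ratio of 1.43 and median percentiles of 12.9 and 15.9. Isolated members were then 52.2% and 35.9% and downstream members 62.8% and 74.4%. Members at genes with a promoter peak in both lists were 80.7% and 89.7%, and 518 genes had untreated-only members alone. In the same lists, a setting chosen after seeing the data for this count, isolated members numbered 523 and 252.

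Among members ranked in the upper 50% by score the ratio fell below 1, to 0.895, with 235 members, 124 of them untreated-only. There the shares were 12.1% and 13.8%, isolated members 24.3% and 23.4%, and downstream members 76.6% and 83.1%. Members at genes with a promoter peak in both lists were 87.4% and 88.7%, and genes of one set alone 94 and 97. Peaks outside protein-coding genes were 22.5% and 18.5%, coding exons 11.7% and 13.7%, median GC content 55% and 54.8%, and median CpG ratio 0.4 and 0.52. The AP-1 word was in 1.8% and 4.03%, the SP word in 17.1% and 16.9%, the RUNX word in 16.2% and 8.06%, the NFI word in 9.01% and 14.5% and CRE in 0% of both, TEAD in 8.11% and the E-box in 17.1% of DOP-only and ETS in 6.45% of untreated-only peaks.

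A window of 2 to 10 kb gave 1648 members, 690 of them untreated-only, a DOP-only share of 41% and a ratio of 1.39, and a window of 1 to 5 kb gave 1767 members and a DOP-only share of 36.3%. Clusters chained within 1 kb numbered 1400, with 599 untreated-only. Starts of all annotated transcripts gave shares of 40.6% and 35.5%, and the 5′-most start of each gene 29.8% and 27% with a ratio of 1.14. Of the settings chosen after seeing the data, the shortened DOP-treated list gave a DOP-only share of 36%, 59.4% isolated and a ratio of 1.08. The band of 45 to 55% GC gave the E-box in 12.8% of DOP-only, SP in 5.83% and 4.87% and RUNX in 13.7% and 16.4%. The causes of these shifts were not tested. Counts of one-list peaks changed with how far down in score the lists were taken. The ratio was 1.08 with the shortened DOP-treated list and 1.43 with both lists reduced to scores of at least 100.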
